A study of Mus musculus with 24 samples.

Results

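The genes described here are 40 mouse genes of the interferon pathway, chosen by symbol from the count table. They comprise both chains of the type I interferon receptor, 5 transcription factors, and 33 interferon-stimulated genes. All 40 have a row among the 23972 genes of the table, and the choice by symbol applied no threshold to a measured value, although earlier results of these data were known when the list was made. The lowest count of any member in any library was 25, so none was near the limit of detection.

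Liver polyA RNA of 24 female mice was sequenced, with 1 library per animal. All mice carried Lmna alleles with loxP sites around exons 10 and 11 (Lmna fl/fl), were housed at 22°C, were 12 to 14 weeks old at the start, and ate a diet with 60% fat for 4 weeks before injection and the 8 weeks that followed. Lmna ADKO mice also carried Adipoq-Cre, which deletes Lmna in adipocytes and leaves it in liver cells, and the mice lose adipose tissue. Controls were Lmna fl/fl without Cre. The groups were vehicle-treated controls (n = 7), vehicle-treated Lmna ADKO mice (n = 6), FGF21-treated controls (n = 3), and FGF21-treated Lmna ADKO mice (n = 8). FGF21 treatment was an injected AAV8 that encodes mouse FGF21, and vehicle was buffer without virus, so that effects of FGF21 and of the virus cannot be told apart. The labels call the treated groups Rescue, which was read as FGF21 from the study's methods, and Fgf21 counts in liver did not set these groups apart: they averaged 4.01 CPM (counts scaled to library size) in vehicle-treated controls and 4.78 in FGF21-treated controls, and 7.99 and 5.36 CPM in the corresponding Lmna ADKO groups.

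Type I interferons are cytokines that nearly all cells can make when sensors in the cell meet foreign nucleic acid. They bind the receptor formed by IFNAR1 and IFNAR2, and the kinases JAK1 and TYK2 then set off a complex with STAT2 and IRF9 that binds the interferon-stimulated response element (ISRE) in promoters. The genes it turns on encode antiviral proteins, sensors, and the pathway's own factors, and in liver both hepatocytes and resident macrophages express them. Type II interferon acts through another receptor and on the gamma-activated site (GAS), and many genes, such as those for guanylate-binding proteins, answer to both.

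Promoter stretches with the motif of this complex are shown first, since several belong to members that are compared with a neighbouring gene below. RefSeq promoters, from 250 bases before to 50 bases after a start site on GRCm38.p6, matched 30 of the 40 members by symbol. Dhx58, Ifi27, Mx1, Mx2, Oas2, Parp9, Parp14, Rtp4, Usp18, and Zbp1 had no entry. An ISRE core, GAAANNGAAA or its reverse complement TTTCNNTTTC, was found on either strand in the promoter of 15 of the 30 members, against 3.44% of all 32851 promoters of this length. A GAS core, TTCNNNGAA, which is its own reverse complement, was found in 10 of the 30, against 8.30% of all promoters. Some members have several promoter entries. Counted by promoter, as the shares of all promoters are, an ISRE core was found in 15 of 34 member promoters (44.1%). A GAS core was found in 10 of the 34 (29.4%). The letters of a GAS core can overlap those of an ISRE core. For the 6 members with an ISRE core before the start site and the smallest p-values in the vehicle comparison, the stretch around the cores is printed on the gene's own strand, 5′ to 3′, with the ISRE cores in capitals.
Ifit3, chr19:34583349-34583440, plus strand: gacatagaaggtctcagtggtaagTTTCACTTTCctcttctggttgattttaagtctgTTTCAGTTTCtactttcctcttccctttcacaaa
Ifit1, chr19:34640761-34640837, plus strand: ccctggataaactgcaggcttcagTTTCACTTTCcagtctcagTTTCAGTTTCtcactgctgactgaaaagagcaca
Isg15, chr4:156200851-156200920, minus strand: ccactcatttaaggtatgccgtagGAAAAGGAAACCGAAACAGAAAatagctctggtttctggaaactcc
Igtp, chr11:58199498-58199555, plus strand: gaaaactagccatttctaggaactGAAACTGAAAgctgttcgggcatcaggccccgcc
Stat2, chr10:128270252-128270309, plus strand: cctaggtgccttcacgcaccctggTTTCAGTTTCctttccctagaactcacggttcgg
Gbp3, chr3:142559975-142560038, plus strand: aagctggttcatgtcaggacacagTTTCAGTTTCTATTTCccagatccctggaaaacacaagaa
Ifit3 and Ifit1 each hold 2 separate cores, Isg15 holds 3 that overlap in 1 run, Gbp3 holds 2 that overlap, and Igtp and Stat2 hold 1 each. The core nearest to the start site ends 24 bases before it in Igtp, 29 in Gbp3, 56 in Isg15, 75 in Ifit1, 112 in Ifit3, and 212 in Stat2.

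Gene counts summed to 19863304 in the smallest and 21510054 in the largest library. Within a group, library numbers follow the animal numbers. In 3 libraries, vehicle-treated control 3, FGF21-treated control 3, and FGF21-treated Lmna ADKO 7, log2 CPM fell with gene length more steeply than in the others (slopes of log2 CPM on log2 exonic length of -0.154, -0.289, and -0.331, against -0.109 to 0.128). Counts below are also given without them where they matter. Animal numbers have 3 digits in 6 of the 7 vehicle-treated controls and in 1 of the 6 vehicle-treated Lmna ADKO mice, so that the number series and the genotype can hardly be told apart there. Hepatocyte markers were the most abundant of the cell type lists, with summed levels from 69500 to 147000 CPM per library. In this bulk RNA, fewer cells of a type and less RNA per cell cannot be told apart.

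In livers of vehicle-treated Lmna ADKO mice, most of the pathway was lower than in vehicle-treated controls. Of the 40 members, 27 were lower at an adjusted p under 0.05 (edgeR, adjusted over all genes), against 6.76% of all genes tested and 12.8% of the 14699 genes with enough counts for edgeR's filterByExpr, which kept all 40 members. None was higher, against 8.35% of all genes, and 0 were higher at an unadjusted p under 0.05 or by DESeq2. With a fold change above 1.5 required as well, 19 members were lower, against 3.36% of all genes. For 13 members, every Lmna ADKO library was below every control library, against 3.73% of all genes and 5.97% of the genes with enough counts. The median log2 fold change of the members was -0.57, with a range from -1.16 to 0.12, whereas the median over all genes was 0.003. By role, 1 of 2 receptor chains, 5 of 5 transcription factors, 2 of 4 nucleic acid sensors, 3 of 3 genes of the ISG15 system, 4 of 6 IFIT and IFI genes, 2 of 5 OAS genes and PKR, 4 of 7 MX, viperin, and other effector genes, 2 of 3 PARP and DTX3L genes, and 4 of 5 GBP and IRG genes were lower.

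**Figure D1:**
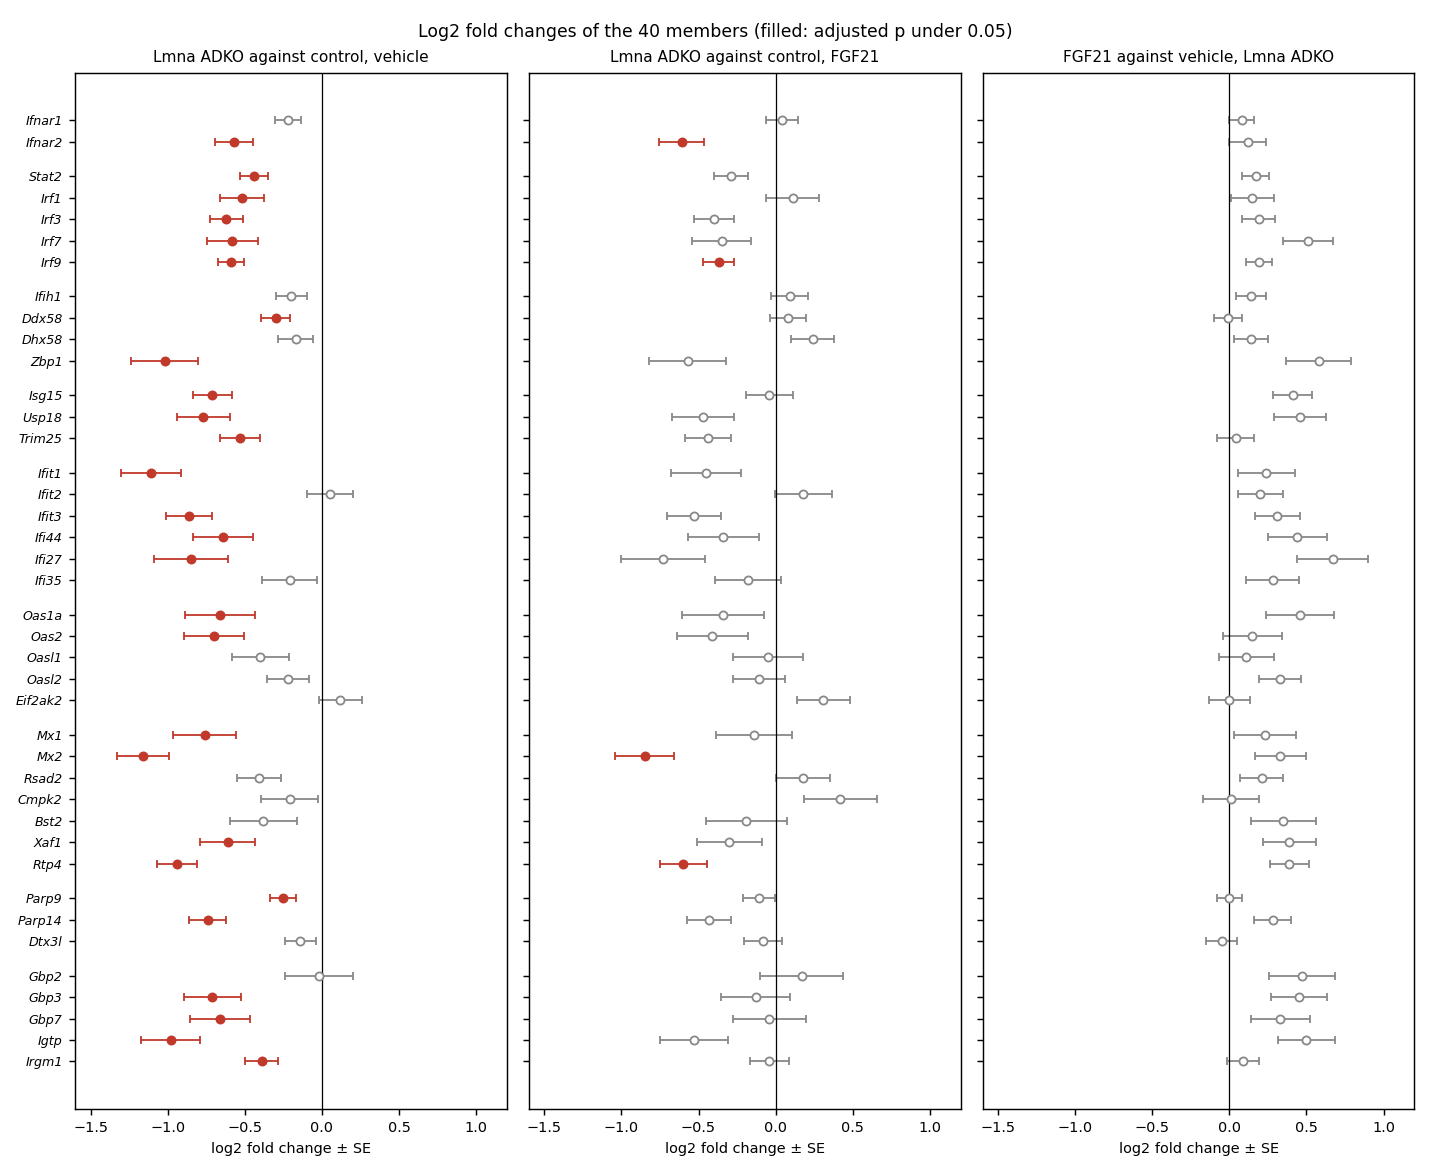
Log2 fold change (horizontal axis) with its standard error of each of the 40 members, grouped by role, for Lmna ADKO against control with vehicle (left), the same with FGF21 (middle), and FGF21 against vehicle in Lmna ADKO mice (right). Filled red points have an adjusted p under 0.05: 27 members on the left, all below 0, 4 in the middle, and none on the right.

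The receptor chains differed in size of change. Ifnar2, which carries the docking sites for STAT2, ran from 70.1 to 89.8 CPM in vehicle-treated controls, with a median of 74.0. In vehicle-treated Lmna ADKO livers it ran from 48.7 to 54.1 CPM, with a median of 50.8. The groups did not overlap, and Ifnar2 fell by 0.57 ± 0.12 (SE) on the log2 scale (edgeR adjusted p = 0.00177). Ifnar1, the chain bound by TYK2, ran from 26.9 to 32.8 CPM in controls (median 29.9) and from 23.8 to 27.5 CPM in Lmna ADKO livers (median 26.2). Its groups overlapped, and its log2 fold change of -0.22 ± 0.08 missed the threshold (edgeR adjusted p = 0.0848).

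All 5 transcription factors were lower in vehicle-treated Lmna ADKO mice. Irf9, the DNA-binding part of the complex that acts on the ISRE, ran from 39.5 to 48.1 CPM in controls (median 42.4) and from 23.2 to 33.9 CPM in Lmna ADKO livers (median 29.5). Irf9 fell by 0.59 ± 0.09 on the log2 scale (edgeR adjusted p = 2.61e-05). Its partner Stat2 ran from 37.6 to 53.7 CPM in controls (median 47.1) and from 29.7 to 36.1 CPM in Lmna ADKO livers (median 36.1). Neither gene's groups overlapped. Stat2 fell by 0.44 ± 0.09 (edgeR adjusted p = 0.00116).

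Irf3 and Irf7 encode the factors that switch on interferon genes once a sensor has been triggered. Irf3 ran from 52.6 to 66.1 CPM in controls (median 59.5) and from 34.9 to 43.8 CPM in Lmna ADKO livers (median 38.1), without overlap. It fell by 0.62 ± 0.11 (edgeR adjusted p = 0.000202). Irf7, which is itself induced by interferon, ran from 56.6 to 87.9 CPM in controls (median 70.7) and from 40.1 to 64.8 CPM in Lmna ADKO livers (median 44.9). In 5 of the 6 Lmna ADKO libraries Irf7 was below all controls, and it fell by 0.58 ± 0.16 (edgeR adjusted p = 0.0153). Irf1, a factor induced mainly by type II interferon, ran from 35.5 to 55.3 CPM in controls (median 44.0) and from 25.3 to 42.2 CPM in Lmna ADKO livers (median 28.3). Again 5 of 6 Lmna ADKO libraries were below all controls, and Irf1 fell by 0.52 ± 0.14 (edgeR adjusted p = 0.0117). With the number series as a covariate, the adjusted p of Irf1 was 0.0721.

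The nucleic acid sensors did not move alike. Zbp1, which senses nucleic acid in the left-handed Z form and can start necroptosis, ran from 12.4 to 20 CPM in controls (median 16.5) and from 4.40 to 11.7 CPM in Lmna ADKO livers (median 8.05), without overlap. It fell by 1.02 ± 0.22 (edgeR adjusted p = 0.00183). The RNA helicase genes were closer to control levels. Ddx58, which encodes RIG-I, averaged 28.6 ± 2.89 CPM (SD, n = 7) in controls and 23.3 ± 1.26 CPM (n = 6) in Lmna ADKO livers and fell by 0.30 ± 0.10 (edgeR adjusted p = 0.0339), a call lost in 9 of 20 alternative fits. Ifih1 (MDA5) and Dhx58 (LGP2) had log2 fold changes of -0.20 and -0.17 and did not pass the test.

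All 3 genes of the ISG15 system were lower. Isg15, a ubiquitin-like protein that is attached to newly made proteins, ran from 11.5 to 22.2 CPM in controls (median 16.3) and from 8.81 to 11.7 CPM in Lmna ADKO livers (median 9.98). Of the Lmna ADKO libraries, 5 were below all controls, and the highest lay just above the lowest control. Isg15 fell by 0.71 ± 0.13 (edgeR adjusted p = 0.000274). Usp18, which removes ISG15 and restrains the receptor at IFNAR2, fell by 0.77 ± 0.17, and Trim25, a ubiquitin ligase that acts with RIG-I, fell by 0.53 ± 0.13. Neither overlapped between the groups.

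Among the IFIT genes, which encode proteins that bind foreign RNA, neighbours differed. Ifit1 ran from 11.8 to 21.9 CPM in controls (median 19.1) and from 6.22 to 9.40 CPM in Lmna ADKO livers (median 7.91). Ifit3 ran from 25.3 to 48.2 CPM in controls (median 36.5) and from 18.2 to 24 CPM in Lmna ADKO livers (median 20.1). Neither overlapped between the groups. Ifit1 fell by 1.11 ± 0.19 (edgeR adjusted p = 0.000218) and Ifit3 by 0.86 ± 0.15 (edgeR adjusted p = 0.000178). In contrast, Ifit2 averaged 6.35 ± 0.848 CPM (SD, n = 7) in controls and 6.57 ± 1.82 CPM (n = 6) in Lmna ADKO livers, with a log2 fold change of 0.05 ± 0.15. Ifit3 has a near copy, Ifit3b, with which it may share reads, and Ifit3b was lower by a similar amount (log2 fold change -1.06, edgeR adjusted p = 6.88e-05). Of the IFI genes, Ifi27, a mitochondrial protein gene, fell by 0.85 ± 0.24 and Ifi44 by 0.64 ± 0.20, a call lost in 6 of 20 alternative fits, whereas Ifi35 (-0.21) did not pass the test.

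The OAS genes encode enzymes that make oligoadenylates, the activators of RNase L. Oas1a fell by 0.66 ± 0.23 (edgeR adjusted p = 0.0486) and Oas2 by 0.70 ± 0.20 (edgeR adjusted p = 0.013), and both overlapped between the groups. With the number series as a covariate neither passed (edgeR adjusted p = 0.139 for Oas2), and the call of Oas1a was lost in 12 of 20 alternative fits, with a largest adjusted p of 0.116. Oas1a has several near copies in mouse, so that its reads may be split among them. The OAS-like genes Oasl1 (log2 fold change -0.40) and Oasl2 (-0.22) did not pass the test. Eif2ak2, the kinase PKR that halts translation, had the highest log2 fold change of all members, 0.12 ± 0.14, and did not pass either.

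Mx2 and Rtp4 had the lowest and the fifth lowest log2 fold change and the smallest p-values of all members. Mx2, a gene of the MX family of GTPases, ran from 4.97 to 8.27 CPM in controls (median 6.48) and from 2.25 to 3.80 CPM in Lmna ADKO livers (median 2.60). It fell by 1.16 ± 0.17 (edgeR adjusted p = 1.95e-05). Rtp4, a chaperone of membrane receptors that also restrains the interferon response, ran from 19.5 to 30.3 CPM in controls (median 28.2) and from 10.7 to 17.1 CPM in Lmna ADKO livers (median 13.9). It fell by 0.94 ± 0.13 (edgeR adjusted p = 1.14e-05). For both genes, all 6 Lmna ADKO libraries were below all 7 controls. Mx1, a relative of Mx2, fell by 0.76 ± 0.20 from the lowest level of all members, a mean of 2.91 CPM in controls. Whether either MX gene yields a working protein in these mice was not tested. Xaf1, a pro-apoptotic gene, fell by 0.61 ± 0.18. The effectors Rsad2 (viperin, log2 fold change -0.41, edgeR adjusted p = 0.0506), Cmpk2 (-0.21), and Bst2 (tetherin, which holds budding viruses at the membrane, -0.38) did not pass.

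Parp14, an ADP-ribosyltransferase, ran from 36.5 to 47.0 CPM in controls (median 38.8) and from 20.9 to 29.6 CPM in Lmna ADKO livers (median 24.2), without overlap. It fell by 0.74 ± 0.12 (edgeR adjusted p = 9.13e-05). Parp9 and Dtx3l, whose proteins form a complex, lie next to it. Parp9 fell by 0.25 ± 0.09 (edgeR adjusted p = 0.0447), the smallest change that passed and a call lost in 11 of 20 alternative fits, and Dtx3l, at -0.14 ± 0.10, did not pass.

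Igtp belongs to the immunity-related GTPases, which protect host membranes and attack those around intracellular parasites. Igtp ran from 70.6 to 96.7 CPM in controls (median 84.9) and from 27.4 to 60.8 CPM in Lmna ADKO livers (median 40.5), without overlap, and fell by 0.98 ± 0.19 (edgeR adjusted p = 0.000808). Igtp shares 7974 bases on the same strand with Irgm2, a gene of the same family, whose log2 fold change was -0.97, so that their counts may not be separate measurements. Irgm1 fell by 0.39 ± 0.11. Of the guanylate-binding proteins, which are GTPases against intracellular pathogens, Gbp3 fell by 0.71 ± 0.19 and Gbp7 by 0.66 ± 0.20, a call lost in 4 of 20 alternative fits, whereas Gbp2 averaged 16.4 ± 3.56 CPM (SD, n = 7) in controls and 16.2 ± 4.66 CPM (n = 6) in Lmna ADKO livers. In GENCODE M21, 13 members overlap another gene of the table, 5 of them on the same strand, among which are Irf9, Rtp4, and Parp14. The libraries were made with a kit that marks strand, and the strand setting of the counting is not given in the sources used here.

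**Figure D2:**
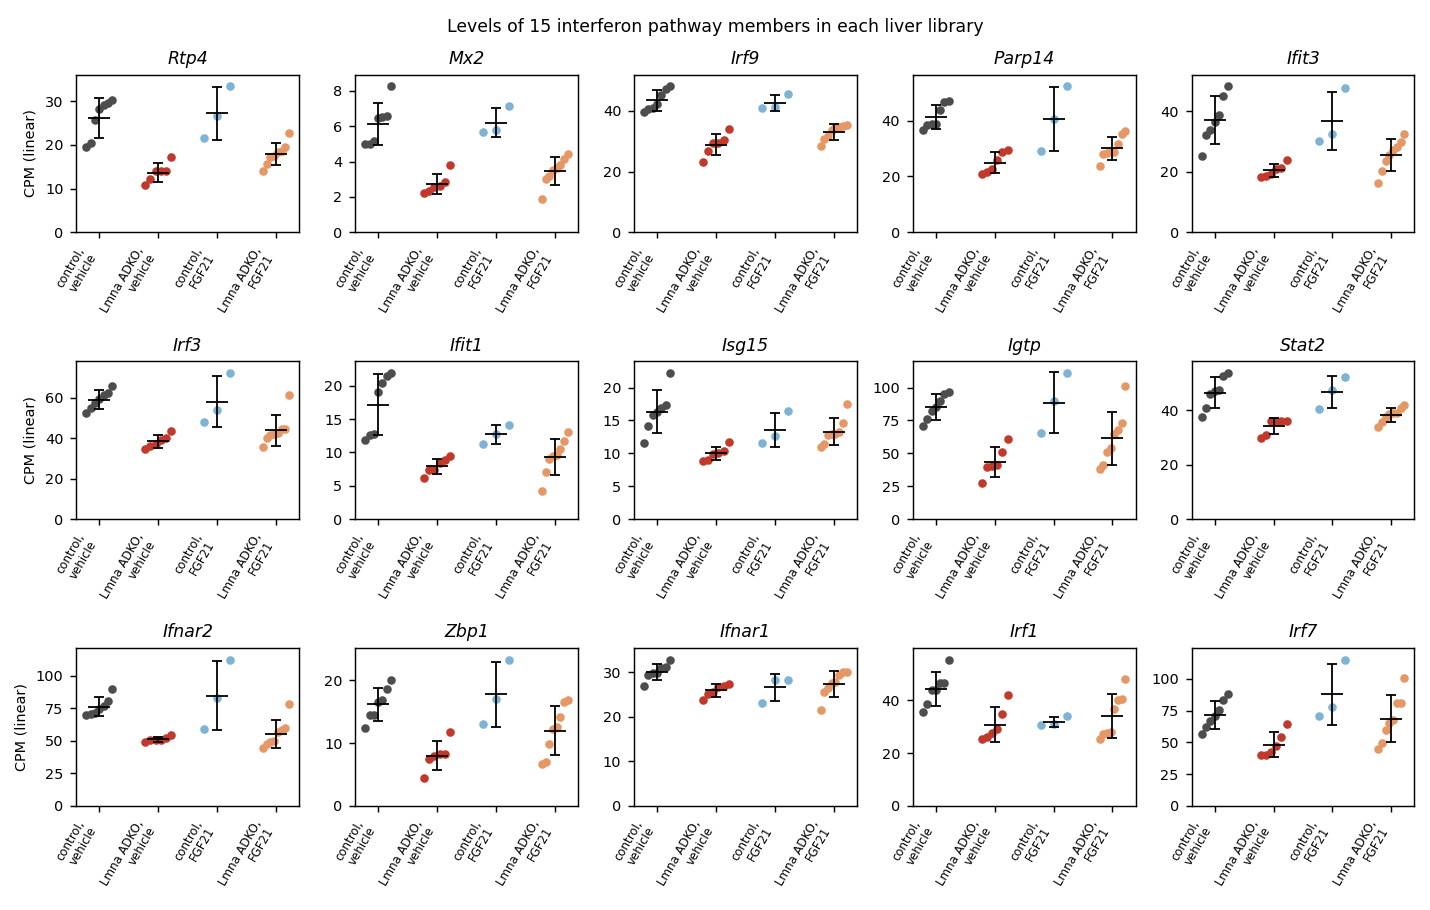
Level in CPM (vertical axes, linear, from 0) of the 12 members with the smallest p-values in the vehicle comparison and of Ifnar1, Irf1, and Irf7, in each of the 24 libraries. Points are libraries, bars are the mean and SD of a group, and in 11 of the 12 all vehicle-treated Lmna ADKO libraries (red) lie below all vehicle-treated controls (dark grey), the exception being Isg15.

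Because members that lie side by side differed, the log2 ratio of neighbours within each library was compared between the vehicle groups. This was done after the single values had been seen, for the 14 pairs of members at most 200000 bases apart, with a two-sided exact permutation test whose smallest possible p is 0.00117. The ratio differed in 7 of the 14 pairs after adjustment over the pairs, and the same 7 had an unadjusted p under 0.05. Among all 53930 pairs of genes with enough counts at most that far apart, 41.3% had an unadjusted p under 0.05 and 11.6% showed no overlap, so that the count of 7 is close to that of any neighbouring genes, and the pairs are given as a description of these loci. Relative to Ifit2, Ifit1 was lower in Lmna ADKO livers by a difference of -1.09 in the log2 ratio, and Ifit2 relative to Ifit3, which lies 7111 bases from it, was higher by 0.85 (exact permutation adjusted p = 0.00326 each). The ratio of Ifit1 to Ifit3 did not pass the test (-0.23, exact permutation adjusted p = 0.165).

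Parp14 was lower relative to both of its neighbours, with the ratio of Parp9 to Parp14 higher by 0.49 and that of Parp14 to Dtx3l lower, at -0.60 (exact permutation adjusted p = 0.00326 each). The ratio of Ifnar1 to Ifnar2, 79648 bases apart, was higher by 0.35 in Lmna ADKO livers, with the same p, which means that Ifnar2 was lower relative to Ifnar1. In these 5 pairs all 6 Lmna ADKO libraries lay outside the range of the 7 controls. Gbp2 was higher relative to Gbp3 by 0.68 (exact permutation adjusted p = 0.0163) and relative to Gbp7 by 0.60 (exact permutation adjusted p = 0.0109). Rsad2 and Cmpk2, Oas1a and Oas2, Oasl1 and Oasl2, Mx1 and Mx2, Gbp3 and Gbp7, and Parp9 and Dtx3l, which share 682 bases on opposite strands, gave differences from -0.20 to 0.40 that did not pass the test. Of these, the ratio of Parp9 to Dtx3l lay below all controls in 5 Lmna ADKO libraries and above all controls in 1. The stretches printed above show ISRE cores before both Ifit1 and Ifit3. Neither of the 2 RefSeq promoters of Ifit2 holds these letters. The ISRE core is also found in the promoter of Gbp2, which did not move with Gbp3 and Gbp7. An element with other letters, or outside the 300 bases searched, would not be found. Whether the cores play a part in these differences was not tested.

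**Figure D3:**
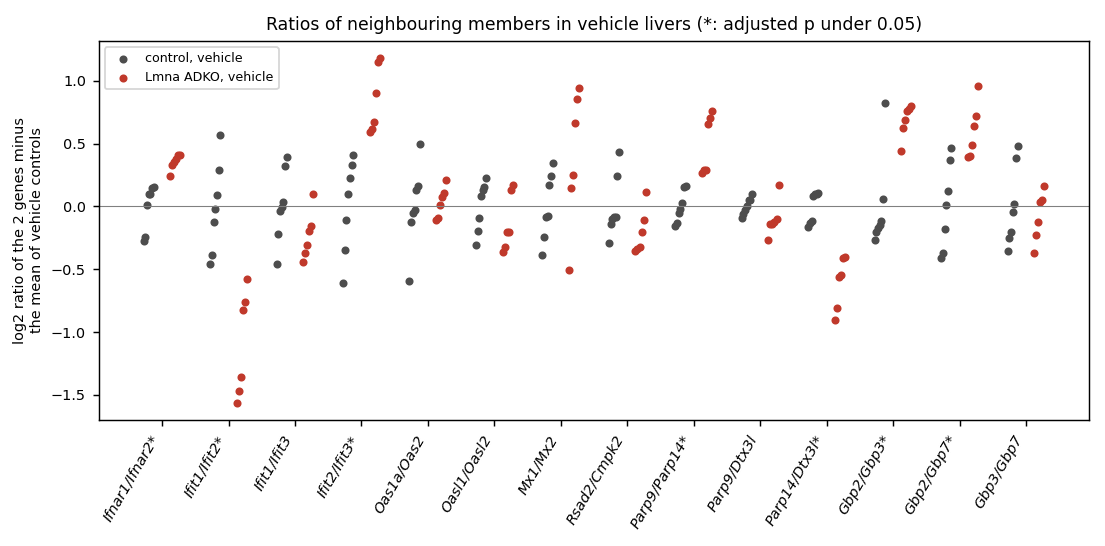
Log2 ratio of 2 neighbouring members within a library, minus the mean ratio of the vehicle-treated controls (vertical axis), for the 14 pairs at most 200000 bases apart. Points are vehicle-treated libraries, grey for controls and red for Lmna ADKO, and an asterisk marks the 7 pairs with an adjusted p under 0.05, of which 5 show no overlap.

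Changes were also read by whether the 300 bases of a promoter held an ISRE core, as a description. The 15 members with a core had a median log2 fold change of -0.44, with 10 of 15 lower, and the 15 with a promoter but no core had a median of -0.52, with 8 of 15 lower. The 10 without an entry had a median of -0.76, with 9 of 10 lower. Whatever their promoter, 6.76% of all genes and 12.8% of the genes with enough counts were lower. Levels per length also differed widely among the members. Per kilobase of exon, Bst2 (143 CPM per kb), Ifi27 (72.5), and Igtp (42.1) were the most abundant in vehicle-treated controls, and Ifi44 (1.35) and Mx1 (0.768) the least. On that scale, Ifnar2 stood at 22.8 CPM per kb and Ifnar1 at 5.07.

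To show single animals, the log2 CPM of each member minus its mean over all libraries was averaged over the 40 members in each library, as a description without a test. In vehicle-treated controls this level ran from -0.018 to 0.347, with a median of 0.294. In vehicle-treated Lmna ADKO livers it ran from -0.417 to -0.014, with a median of -0.322. Apart from control 2, the lowest control, and Lmna ADKO 1, the highest Lmna ADKO library, the groups did not overlap. Lmna ADKO 1 is the only one of its group with a 3-digit animal number. Against the 6 controls with such numbers, 32 of 40 members were lower in this library, with a median log2 difference of -0.19, and 16 were below all 6, against 22.6% of the genes with enough counts. The 5 Lmna ADKO libraries with 4-digit numbers, against the single control with one, had 39 of 40 members lower, with a median difference of -0.58, and 36 were without overlap, against 27.6% of the genes with enough counts. With the number series as a covariate, 22 of 40 members were lower in edgeR's test, and 29 were lower without the 3 libraries with steep length slopes. Of all 23972 genes, 979 and 2009 were lower in these settings, against 1621 in the main fit.

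**Figure D4:**
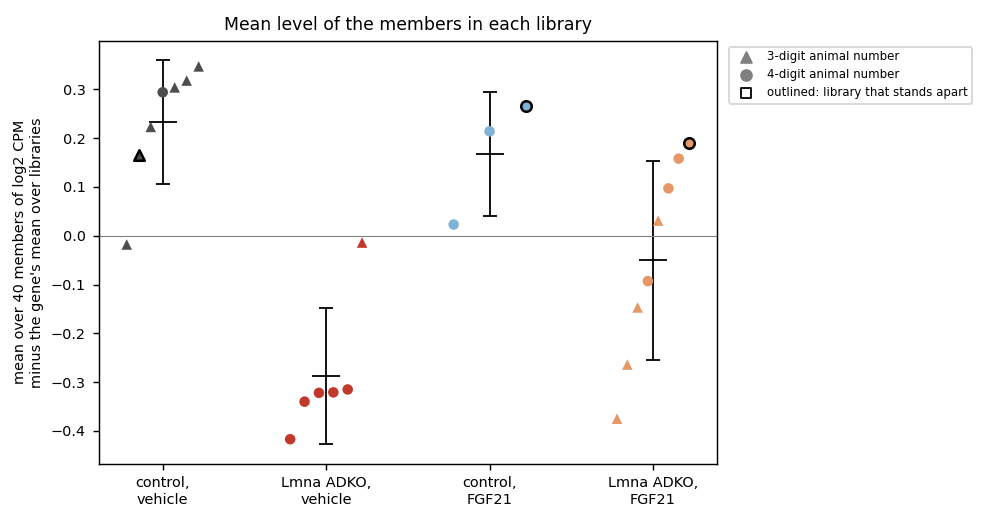
Mean over the 40 members of log2 CPM minus each gene's mean over all libraries (vertical axis), by group, with the mean and SD of the group as bars. Triangles are libraries with 3-digit and circles those with 4-digit animal numbers, black outlines mark the 3 libraries with steep length slopes, and only 1 vehicle-treated Lmna ADKO library, at -0.014, reaches the range of the vehicle-treated controls.

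The rest of the pathway was read from lists made together with the member list. Of 88 other interferon-stimulated genes in the table, 21 were lower in vehicle-treated Lmna ADKO livers, against 6.76% of all genes. Of the same 88, 3 were higher, against 8.35% of all genes, and the median log2 fold change was -0.30. Genes of this list with the smallest p-values were Irgm2 (-0.97), Ifit3b (-1.06), Trim34a, a relative of Trim25 (-0.78), and Trim21, an antibody receptor inside cells (-0.69). Irgm2 and Ifit3b may share reads with the members Igtp and Ifit3, as said above, and may not be separate measurements. The 3 that rose were Ifi27l2b (1.21), Plscr1 (0.61), and Mlkl, the executor of necroptosis (0.56). Of the interferons, 3 of the 21 listed had a row, and their counts were too low to compare: Ifng had 32 counts over all 24 libraries, Ifnz 4, and Ifnk 3. Among 12 genes of nucleic acid sensing only the kinase gene Ikbke rose (0.51), and among 7 negative regulators of the pathway only Pias1 fell (-0.29). Single calls in lists of this size are close to what the shares of all genes, 8.35% higher and 6.76% lower, would give.

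Markers of some cell types moved with the genotype as well. Of 6 hepatocyte markers 3 were lower in vehicle-treated Lmna ADKO livers, namely Serpina1a (log2 fold change -0.95), Cps1 (-0.93), and Cyp2e1 (-0.88), and the summed level of the list was 84400 to 146000 CPM in controls and 70500 to 107000 CPM in Lmna ADKO livers. Of 8 markers of Kupffer cells and macrophages 0 passed edgeR's test, 3 had an unadjusted p under 0.05, and the sums were 636 to 898 and 429 to 753 CPM. Of 8 markers of T and NK cells 0 passed and 4 had an unadjusted p under 0.05, all 8 had log2 fold changes below 0, and the sums were 6.44 to 13.9 and 5.32 to 10.6 CPM. For plasmacytoid dendritic cells, specialised makers of interferon, 0 of 6 passed and 2 had an unadjusted p under 0.05, with sums of 7.41 to 10.6 and 8.67 to 12.1 CPM. Of 5 B cell markers 0 passed, with 0 at an unadjusted p under 0.05, and of 6 neutrophil markers 0 passed, with 1. Higher were Lyve1 (1.93) of 6 endothelial markers, of which Stab2 fell (-0.30), Lrat (0.74) and Dcn (0.46) of 6 stellate cell markers, Spp1 (1.83) of 5 cholangiocyte markers, and Cidec (5.31) and Fabp4 (1.34) of 5 adipocyte markers, whose defining members Adipoq, Plin1, and Lep were at 3 counts per library or fewer on average. Of the 6 endothelial markers, 4 had log2 fold changes below 0, 3 of them at an unadjusted p under 0.05. Of the 6 stellate cell markers, 2 were below 0, both at an unadjusted p under 0.05. The part of these cell types in the levels of the members was not tested.

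With FGF21 in both genotypes, 4 members were lower in Lmna ADKO livers than in controls, against 1.71% of all genes, and none was higher, against 2.14% of all genes, with 13 at an unadjusted p under 0.05, all of them lower. The 4 were Mx2, Ifnar2, Rtp4, and Irf9. Mx2 was at 5.65, 5.80, and 7.14 CPM in the 3 FGF21-treated controls and ran from 1.87 to 4.41 CPM (median 3.59) in FGF21-treated Lmna ADKO livers. It fell by 0.85 ± 0.19 (edgeR adjusted p = 0.0108). Irf9 was at 40.8, 41.3, and 45.5 CPM against 28.3 to 35.4 CPM (median 34.2), a fall by 0.37 ± 0.10 (edgeR adjusted p = 0.0419). Neither gene's groups overlapped.

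Rtp4 was at 21.5, 26.6, and 33.4 CPM in FGF21-treated controls and ran from 14 to 22.6 CPM (median 18.0) in FGF21-treated Lmna ADKO livers. It fell by 0.60 ± 0.15 (edgeR adjusted p = 0.0205). Ifnar2 was at 58.8, 82.9, and 112 CPM against 44.4 to 78.4 CPM (median 53.3), a fall by 0.61 ± 0.15 (edgeR adjusted p = 0.015). Both overlapped between the groups. The highest values of Rtp4 and Ifnar2 in controls were from library 3, one of those with a steep length slope. These calls rest on few controls. The count was 0 when only the 2 FGF21 groups or only libraries with 4-digit animal numbers were fitted, 2 without FGF21-treated control 2 and likewise without control 3, 11 without FGF21-treated Lmna ADKO 7, and 9 with DESeq2. The share of all genes that were lower moved in these settings too. It was 0.605% with only the FGF21 groups, 0.425% with only 4-digit numbers, 0.964% without control 2, 0.672% without control 3, 4.17% without Lmna ADKO 7, and 3.31% with DESeq2.

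FGF21 against vehicle was compared within each genotype. In Lmna ADKO livers, 0 members passed edgeR's test, against 0% of all genes, and 0 passed with DESeq2, by which 10 of all genes were lower and 12 higher. At an unadjusted p under 0.05, 16 members differed, all with higher levels after FGF21, against 6.71% of all genes in either direction. The log2 fold change was above 0 for 36 of 40 members, with a median of 0.23, against 52.3% of the genes with enough counts. The values furthest from 0 were Ifi27 (0.67 ± 0.23), Zbp1 (0.58 ± 0.21), Irf7 (0.51 ± 0.16), and Igtp (0.50 ± 0.18), and the smallest adjusted p of any member was 0.589, for Isg15 (0.41 ± 0.12). Isg15 ran from 8.81 to 11.7 CPM with vehicle and from 10.9 to 17.5 CPM with FGF21, and Irf7 from 40.1 to 64.8 and from 45.2 to 101 CPM, so that both overlapped. In FGF21-treated Lmna ADKO 7, a library with a steep length slope, Ifi27 was at 204 CPM, against 57.9 to 96.4 CPM in the other 7 libraries of the group. Without the 3 libraries with steep slopes, 13 members had an unadjusted p under 0.05 and the median was 0.21. With only 4-digit animal numbers, the count was 21 and the median 0.43. The count of 16 fell to 9 without FGF21-treated Lmna ADKO 8, to 10 without vehicle-treated Lmna ADKO 5, and to 8 without vehicle-treated Lmna ADKO 6. Without FGF21-treated Lmna ADKO 3 it was 20. Over all genes, 1608 had such a p in the main fit, and 1513, 1293, 1239, and 2606 in these fits. That number was 2178 without the libraries with steep slopes and 1255 with only 4-digit animal numbers. Markers of some cell types were higher after FGF21 as well, none past the test. All 6 hepatocyte markers had log2 fold changes above 0, with a median of 0.38 and 4 at an unadjusted p under 0.05, and their sums were 70500 to 107000 CPM with vehicle and 69500 to 147000 CPM with FGF21. For T and NK cells 7 of 8 markers were above 0, with a median of 0.46 and 2 at an unadjusted p under 0.05, and the sums were 5.32 to 10.6 and 6.53 to 16 CPM. Their part in the levels of the members was not tested. This comparison shares the 6 vehicle-treated Lmna ADKO libraries with the genotype comparison above, and the signs of the 2 are therefore not separate observations.

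In controls, 0 members passed edgeR's test for FGF21 against vehicle, against 0.0542% of all genes, and 0 passed with DESeq2. At an unadjusted p under 0.05, 4 members differed, all with lower levels after FGF21, against 6.16% of all genes. These 4 were Ddx58 (-0.38 ± 0.12), Irf1 (-0.48 ± 0.18), Cmpk2 (-0.62 ± 0.24), and Rsad2 (-0.38 ± 0.18). The count was 9 without FGF21-treated control 1 and 7 without vehicle-treated control 2. Over all 23972 genes, 2788 and 1401 had such a p in these fits, against 1476 in the main one. The count was 3 without any 1 of FGF21-treated controls 2 and 3 and vehicle-treated controls 1 and 7, with 1044 to 1445 of all genes. Irf1 was at 30.6, 30.9, and 34 CPM in the 3 FGF21-treated controls, below all 7 vehicle-treated controls. The members were split in sign, with 17 above and 23 below 0 and a median of -0.03. All 3 FGF21-treated controls have 4-digit animal numbers, against 1 of the 7 vehicle-treated controls. Treatment and number series can therefore hardly be told apart among controls. With the number series as a covariate, 0 of all genes passed, against 13 in the main fit. In that fit 6 members had an unadjusted p under 0.05, against 986 of all genes.

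The difference of the genotype effects with FGF21 and with vehicle was tested as an interaction. No member passed with edgeR, against 0.00417% of all genes, or with DESeq2, and 8 had an unadjusted p under 0.05, against 4.86% of all genes. That count was 4 without FGF21-treated control 2, with 1163 of all genes. It was 5 without any 1 of FGF21-treated Lmna ADKO 6 and 8, vehicle-treated Lmna ADKO 3 and 4, and vehicle-treated controls 1 and 7. Over all genes, 1064 to 1195 had such a p in those fits. The member count was 11 without any 1 of FGF21-treated control 1, FGF21-treated Lmna ADKO 3, and vehicle-treated control 2. There, 1188 to 1554 of all genes had such a p, against 1165 in the main fit. The interaction was above 0 for 39 of 40 members, with a median of 0.31, against 51.7% of the genes with enough counts. It uses the same libraries as the comparisons above, so that these signs are not separate observations. The overlap of treatment and number series among controls enters the interaction as well. The largest interaction and the smallest unadjusted p were those of Isg15 (0.67, edgeR unadjusted p = 0.00245, adjusted p = 0.91). The change from 27 lower members with vehicle to 4 with FGF21 was not shown to be a difference between the treatments for any single gene. In the averaged level of the members, FGF21-treated controls were at 0.023, 0.214, and 0.265, and FGF21-treated Lmna ADKO livers ran from -0.375 to 0.190, with a median of -0.031. The latter overlapped all other groups. Within this group, Lmna ADKO 8 was above the group median in 38 of 40 members and Lmna ADKO 4 in 7 of 40.

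**Figure D5:**
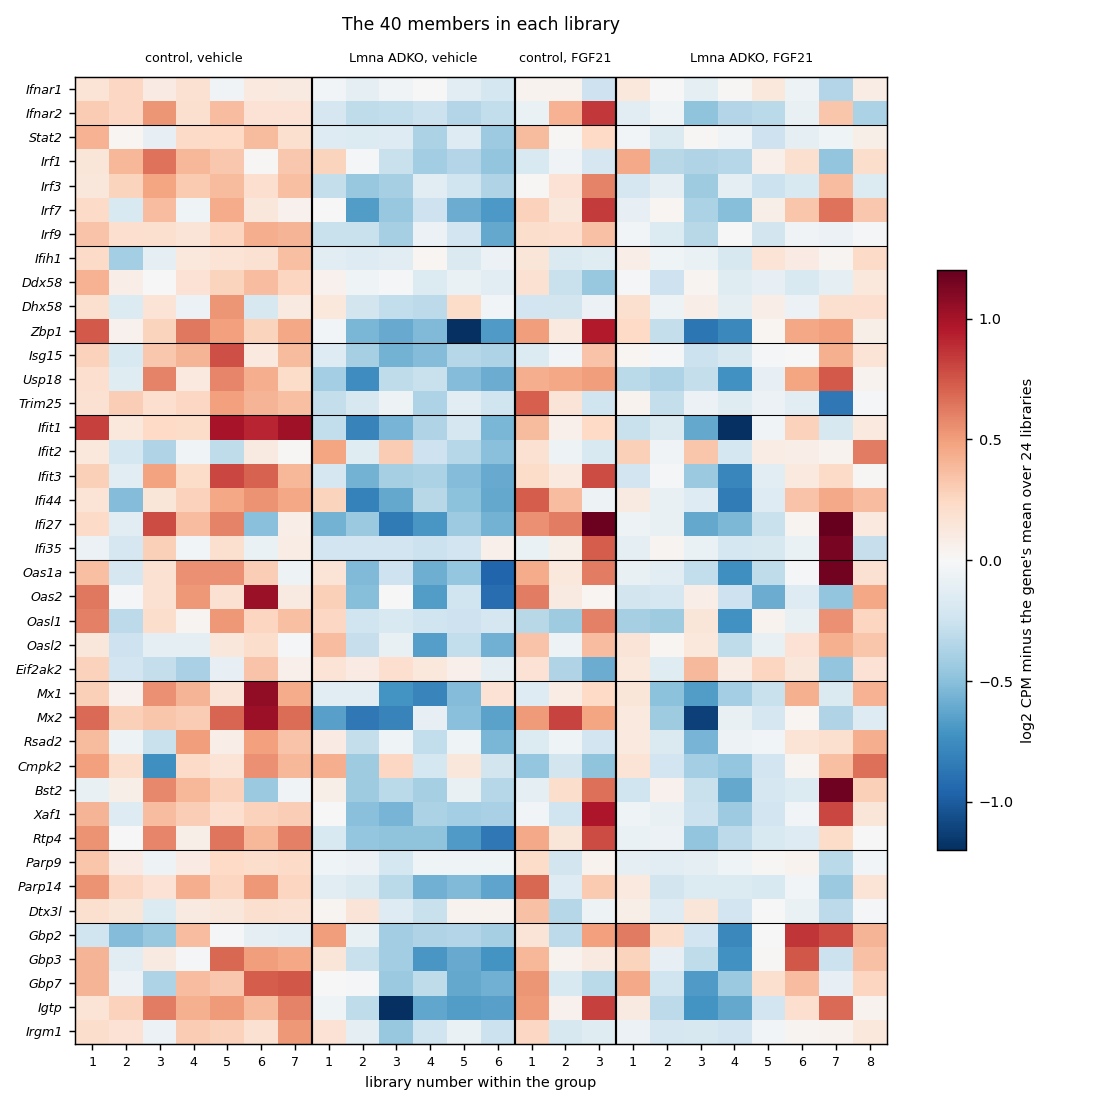
Log2 CPM of each member minus its mean over the 24 libraries (colour, cut at 1.2 in either direction), with members in rows by role and libraries in columns by group. Most rows are blue across the 6 vehicle-treated Lmna ADKO libraries and red across the 7 vehicle-treated controls, and the 8 FGF21-treated Lmna ADKO libraries are mixed.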

How the data were processed

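The authors sequenced liver polyA RNA and deposited raw counts of reads per gene, without normalization. The submitters' processing notes list cutadapt 4.8, FastQC 0.11.8, STAR 2.7.8a, RSEM 1.3.3, and GRCm38. All deposited counts are whole numbers, and whether RSEM estimates were rounded is not stated. By the methods, annotation was Ensembl 102, genes at 0 in every sample were removed, and DESeq2 was used with a fold change of 1.5. The 40 members and all gene lists were chosen with earlier results of these data known. Here, counts of all 23972 genes were scaled by TMM and tested in 1 fit of the 4 groups without covariates with edgeR 4.0.16 in R 4.3.3 (robust quasi-likelihood test), and p-values were adjusted by Benjamini-Hochberg over all genes at a threshold of 0.05. The SE of a log2 fold change is its size divided by the square root of F. For CPM, library sizes were scaled by TMM, with a prior count of 2 on the log2 scale. With replicates that may share litters or cages, p-values measure the spread between these animals. Depth was 19863304 to 21510054 counts, and intervals of single counts were not used.

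Alternatives were DESeq2 1.42.0, its size factors in edgeR, filterByExpr (14699 genes), a fold change above 1.5, only the groups compared, the number of digits of the animal number, only 4-digit libraries, the slope of log2 CPM on log2 exonic length over 9694 genes as a covariate, leaving out the 3 libraries with steep slopes, and leaving out each library. The fits were tested on simulated data.

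Values per library are given for the 12 called members with the smallest p in the vehicle comparison, the receptors and factors, and up to 5 members called in any other comparison, and other lists by up to 4 genes. Neighbouring pairs, their alternatives, and the shares over all such pairs and over all genes within a number series were added after the values were seen. Of the table's value columns, 0 lacked a sample. Some genes of the wider pathway are not reported here.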

Additional observations from a re-analysis of the deposited data

Results flagged for a closer look

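Among the 15 members given per library, the lowest and the highest library of each group of 6 to 8 animals was compared with the rest of its group by Dixon's test on log2 CPM, in 45 groups. Chance alone marks about 1 in 20 groups, and 2 were marked. Mx2 was at 1.87 CPM in FGF21-treated Lmna ADKO library 3, below the other 7 libraries of that group, which ran from 3.02 to 4.41 CPM. Irf3 was at 61.5 CPM in FGF21-treated Lmna ADKO library 7, above the other 7, which ran from 35.5 to 44.4 CPM. Library 7 has the steepest slope of log2 CPM on gene length of all libraries, -0.331.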

How the results depend on the processing

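Of the 27 members lower in vehicle-treated Lmna ADKO livers, 20 passed in every alternative fit and none changed sign. The other 7 were Irf1, Oas2, Ddx58, Oas1a, Parp9, Ifi44, and Gbp7. The first 5 of these missed the threshold with the number series as a covariate, and the last 5 in 4 to 10 of the 13 fits that left out 1 library (Gbp7 in 4, Ifi44 in 6, Ddx58 in 8, Oas1a and Parp9 in 10 each). The count itself lay between 22 and 30, or at 19 with a fold change above 1.5 required. Over all genes, the number lower lay between 979 and 2603 in the alternative fits, against 1621 in the main one. The 4 members lower with FGF21 became 9 with DESeq2, 9 with the length slope as a covariate, and 2 with the number series as a covariate. They became 0 with only the groups compared, 0 with only 4-digit animal numbers, and 2 to 11 when 1 library was left out. Among all genes, 925 were lower in this comparison with the length slope and 242 with the number series, against 411 in the main fit. The 21 other stimulated genes that fell became 32 with only the groups compared and 33 with the length slope, and the 3 that rose became 5 and 6. Over all genes, the number that fell went from 1621 to 2073 and 2603 in the same settings. The number of all genes that rose went from 2002 to 2467 and 2919. All counts of 0 members remained 0 in the alternatives run. Over all genes, FGF21 in Lmna ADKO livers gave 10 lower and 12 higher with DESeq2, 48 lower and 27 higher without FGF21-treated Lmna ADKO 3, 1 of each with only 4-digit animal numbers, and 0 in the other fits. Of the 7 pairs of neighbours that differed, all kept their direction. The cause of these changes was not tested. No paired analysis was possible because the labels give animal numbers and no shared replicate numbers. With 3 FGF21-treated controls, contrasts that use them are the least precise.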
